A study of Mus musculus with 43 samples.

Results

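The nuclear genes of oxidative phosphorylation were taken as every symbol that begins with Ndufa, Ndufb, Ndufc, Ndufs or Ndufv (complex I), Sdha to Sdhd (complex II), Uqcr (complex III), Cox4 to Cox8 (complex IV) or Atp5 (complex V), without pseudogene symbols. The rule gave 105 genes, of which 94 were in the bulk expression tables of 23951 genes and 103 in the single-cell files. It used names only, apart from a level limit: the 88 genes that reached 1 FPKM (fragments of transcript scaled by transcript length and by library size) in any bulk library are described. By complex these were 43 genes of complex I, 6 of complex II, 8 of complex III, 16 of complex IV and 15 of complex V. Among the 94 genes were 12 for assembly factors, which help to build a complex and mostly do not remain in it, and they were counted with their complex. Ndufa4, once assigned to complex I, and its relative Ndufa4l2 were counted with complex IV, and Atp5sl with the assembly factors of complex I. Just inside the level limit lay Cox6a2, with a highest value of 1.73 FPKM, and just outside it Cox4i2, with a highest value of 0.469 FPKM.

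The samples were primary intestinal organoids of wild-type C57BL/6 mice, which are epithelial cultures grown from the gut lining, and sorted crypt cells. Bulk RNA came from 18 libraries in 6 groups of 3, given either vehicle or 2 ng/mL TGFB1 from day 6, for 24 h. TGFB1 is a cytokine that signals through SMAD proteins. The conditions were no irradiation and collection on day 7 (D7 non-IR), a dose of 4 Gy at day 4 with collection on day 7 (D7 IR), and the same dose with collection on day 11 (D11). The TGFB1 libraries of D11 were thus collected days after the 24 h of treatment that the labels give. Single-cell libraries came from organoids given 4 Gy on day 4 and collected on day 8, after 6, 15 or 24 h of 1 ng/mL TGFB1 or after vehicle for 24 h (0 h), with 1 library each. A further 3 came from Ki67-RFP+ crypt cells, cycling cells that carry a red fluorescent reporter in the Mki67 gene (strain Mki67tm1.1Cle/J): 1 library from a littermate without irradiation and 2 from mice that had received 12 Gy whole-body irradiation 56 h earlier. The labels do not say that replicate libraries came from separate cultures, so every p-value measures the spread between these libraries only.

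Complexes I to IV pass electrons from NADH and succinate to oxygen and pump protons across the inner mitochondrial membrane, except complex II, which passes electrons without pumping, and complex V (ATP synthase) uses the proton gradient to make ATP. All of complex II and most subunits of the other complexes are encoded in the nucleus, while a small set of core subunits is encoded in mitochondrial DNA. In the intestine, absorptive enterocytes are rich in mitochondria, and crypt stem cells also respire, beside Paneth cells that rely more on glycolysis. Nuclear factors such as NRF1, GABP and ERR, and the coactivators Ppargc1a and Ppargc1b, are known to drive transcription of many of these genes.

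The promoters of 5 members are shown because their transcripts moved in different ways across the conditions, as described further on. They were chosen after their motifs and values had been seen. Each is the 150 bases before the gene's start in the RefSeq annotation of build GRCm38.p6, written 5′ to 3′ on the gene's strand, with matches to 4 motifs in capitals. The motifs were GCATGCGC (NRF1), CCGGAAGT (the ETS site used by GABP), AAGATGGCG (YY1) and AAGGTCA (ERR), searched on both strands. Ndufa6, Ndufaf4 and Sdhb each hold the NRF1 letters, overlapping on both strands in Ndufaf4, Ndufb4 holds the ERR letters, and Cox7a1 holds none of the 4. The windows are chr15:82354292-82354441 (minus strand) for Ndufa6, chr4:24897933-24898082 (plus) for Ndufaf4, chr4:140961121-140961270 (plus) for Sdhb, chr16:37654369-37654518 (minus) for Ndufb4 and chr7:30184021-30184170 (plus) for Cox7a1.
Ndufa6: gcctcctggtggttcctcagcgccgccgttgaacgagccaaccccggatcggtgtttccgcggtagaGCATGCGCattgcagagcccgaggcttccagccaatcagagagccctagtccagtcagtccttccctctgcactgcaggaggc
Ndufaf4: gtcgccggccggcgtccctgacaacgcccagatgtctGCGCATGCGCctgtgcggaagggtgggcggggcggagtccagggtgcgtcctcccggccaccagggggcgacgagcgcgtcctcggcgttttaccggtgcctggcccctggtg
Sdhb: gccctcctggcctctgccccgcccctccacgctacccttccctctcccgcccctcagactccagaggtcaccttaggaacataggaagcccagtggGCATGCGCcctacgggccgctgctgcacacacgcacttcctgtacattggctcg
Ndufb4: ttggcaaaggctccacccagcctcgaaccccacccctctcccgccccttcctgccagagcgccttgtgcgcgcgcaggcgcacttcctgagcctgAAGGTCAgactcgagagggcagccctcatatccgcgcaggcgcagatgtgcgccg
Cox7a1: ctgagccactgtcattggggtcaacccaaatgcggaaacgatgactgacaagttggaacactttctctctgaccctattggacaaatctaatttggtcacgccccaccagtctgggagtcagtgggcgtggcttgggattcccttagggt

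RefSeq windows of 300 bases, from 250 before to 50 after the start, were matched for 83 of the 105 members, 74 of them among the described genes. The NRF1 letters stood in 11 of these 74 (14.9%), against 3.05% of all 27025 genes with a window, and the YY1 letters in 8 (10.8%), against 1.64%. The ERR letters stood in 7 (9.46%), against 5.38%, and the ETS letters in 5 (6.76%), against 4.31%. ACGTG, the core of hypoxia response elements, stood in 19 (25.7%), against 21.8%, and the SMAD palindrome GTCTAGAC in 0, against 0.248%. These are matches of letters, not measured binding. The 74 members reached 1 FPKM in some bulk library, while the 27025 genes were not limited by level, so the 2 sets are unlike.

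The 18 bulk libraries summed to 447728 to 621996 FPKM, and their read depth is unknown. The D11 vehicle libraries were less alike than those of other groups: the median coefficient of variation of the described genes was 13.7% there, 7.78% in the D11 TGFB1 group and 3.20 to 4.30% in the 4 D7 groups. D11 vehicle replicate 1 stood apart with 470400 FPKM in all, against 530650 and 530773 in the other libraries of the group, and with lower values of most members. Enterocyte and Paneth marker genes were above a mean of 1 FPKM in every group, while the 4 mesenchymal markers summed to at most 0.623 FPKM and the 4 immune markers to at most 10.05 FPKM in any library. In single cells, 2932, 4283, 2890 and 2218 organoid cells were kept at 0, 6, 15 and 24 h (medians of 8202, 6709, 7805 and 10441 UMIs, unique molecular identifiers that count RNA molecules). The crypt libraries kept 1846 cells without irradiation and 719 and 699 after it (medians of 11969, 14399 and 13500 UMIs), and no pair among the 7 libraries shared more than 1 barcode.

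Per length, the most abundant transcripts among the described genes belonged to complexes IV and V. In D7 non-IR the highest mean over 6 libraries in each complex belonged to Ndufa3 (601 FPKM), an accessory subunit of complex I, Sdhc (276 FPKM), the membrane anchor of complex II, Uqcrq (796 FPKM), a small subunit of complex III, Cox8a (1474 FPKM), the most abundant complex IV transcript there, and Atp5b (1412 FPKM), the catalytic beta subunit of ATP synthase. The same genes led in the other tables, except that Cox6a1 led complex IV in D7 IR (1944 FPKM) and at D11 (1372 FPKM). The lowest were Ndufaf5 (5.69 FPKM), Sdhaf2 (13.1 FPKM), Uqcrfs1 (243 FPKM), Cox6a2 (0.866 FPKM) and Atp5l (3.54 FPKM) in D7 non-IR, and Ndufb4 took the place of Ndufaf5 in D7 IR (2.08 FPKM) and at D11 (2.57 FPKM).

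A few short subunits with nearly no bulk FPKM had many single-cell UMIs. Ndufs5, an accessory subunit of complex I, was listed at 0 in all 6 D7 non-IR libraries and at up to 0.000248 FPKM elsewhere, and Atp5g2, one of the genes of the ATP synthase c-ring, at up to 0.265 FPKM. In the single-cell library at 0 h they had 243 and 284 CPM (UMIs scaled to a common library total). Atp5l, the g subunit of ATP synthase, had at most 4.28 FPKM and 1195 CPM. Ndufb4, at a mean of 2.08 FPKM in D7 IR, also had many UMIs in irradiated organoids, as given further on. The 6 genes under 1 FPKM in every library were Ndufs5, Atp5g2, Cox4i2, Cox7b2, Cox8b and Cox8c, of which the last 4 encode isoforms known from lung, testis or muscle, and these isoforms had at most 2 UMIs in the 0 h library. How the authors counted reads shared with near-identical copies was not given in any source used here, so the FPKM of short subunits with pseudogene copies (14 such symbols were left out) are uncertain.

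The first comparison asked what TGFB1 did to these genes in organoids that had not been irradiated. Most of them were lower with TGFB1, and none was higher. Of 87 members tested in D7 non-IR, 78 fell and 0 rose (limma, Benjamini-Hochberg adjusted p under 0.05 over all genes), while 34.9% of all 11330 genes fell and 33.3% rose. The median change of the members was −0.36 on the log2 scale of FPKM + 1, on which every change below is given, against −0.02 for all genes. In bulk RNA, fewer cells of a type and less RNA per cell cannot be told apart. The falls were modest, and only Cox6b2 passed 2-fold.

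In irradiated organoids at D7, 72 of 86 tested members fell and 3 rose, while 39.7% of all genes fell and 35.8% rose. The median member changed by −0.34, against −0.03 for all genes. The genes that rose were Ndufb4 and Ndufa1, accessory subunits of complex I, and Cox7a1, the heart and muscle isoform of a complex IV subunit. At D11, 63 of 86 fell and 2 rose, while 31.6% of all genes fell and 32.3% rose, and the median member changed by −0.47 (0.01 for all genes). The 2 that rose were Ndufaf4 and Sdhaf2, both assembly factors. Without D11 vehicle replicate 1, 75 members fell at D11 and the median member changed by −0.59. Called lower in all 3 conditions were 53 of the 86 members tested in each, and called higher in all 3 were 0, against 13.5% and 14.6% of all genes.

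**Figure D1:**
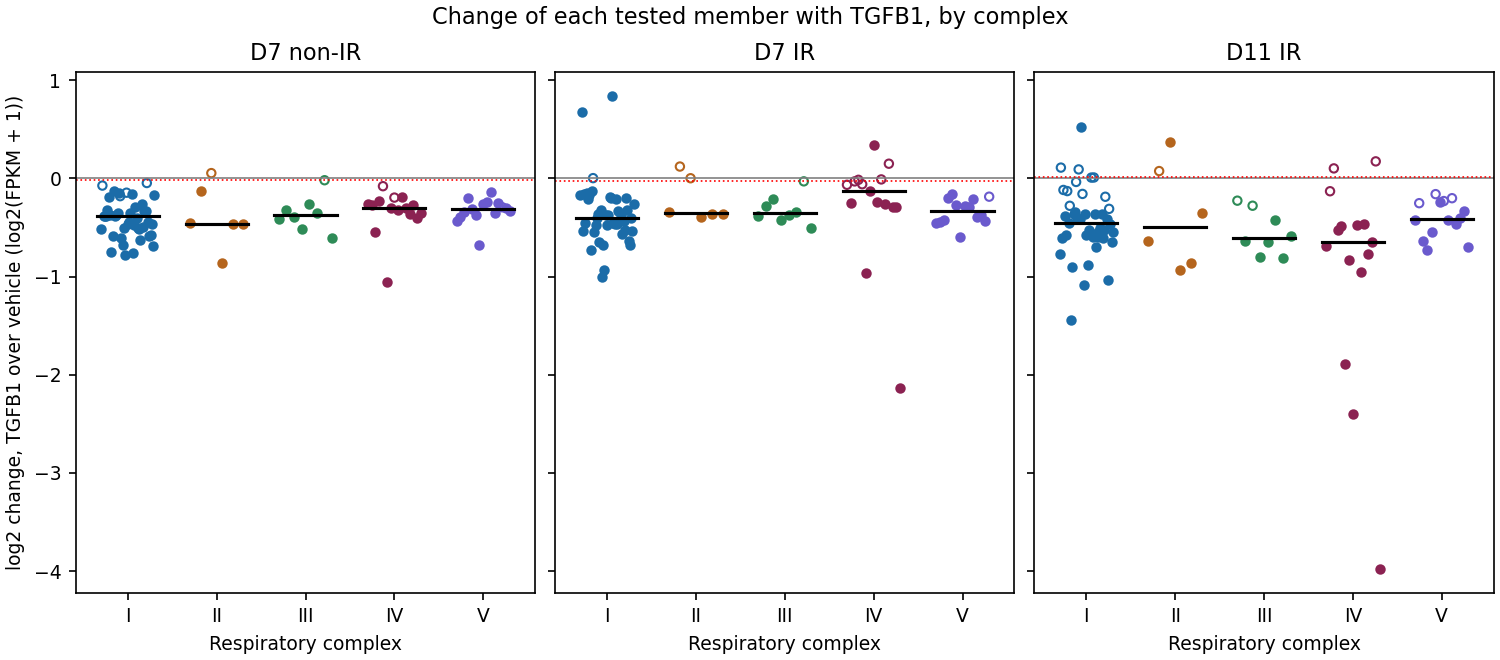
Change of each tested member with TGFB1 in the 3 bulk conditions, by complex (x axis); the y axis is the log2 change of FPKM + 1, filled points are called by limma (adjusted p under 0.05), open points are not, black bars are the median of a complex and the red dotted line is the median of all genes. Most filled points lie between 0 and −1, and the lowest at D11 are Ndufa4l2, Cox7a1 and Cox6b2 in complex IV.

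As a share of all FPKM, the 88 genes held 5.12, 5.17 and 5.18% in the D7 non-IR vehicle libraries and 3.98, 3.88 and 3.85% with TGFB1. In D7 IR they held 4.85, 5.00 and 4.88% with vehicle and 3.70, 3.75 and 3.64% with TGFB1. At D11 they held 4.00, 4.59 and 4.56% with vehicle and 3.35, 3.47 and 3.19% with TGFB1. In each condition every TGFB1 library lay below every vehicle library.

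**Figure D2:**
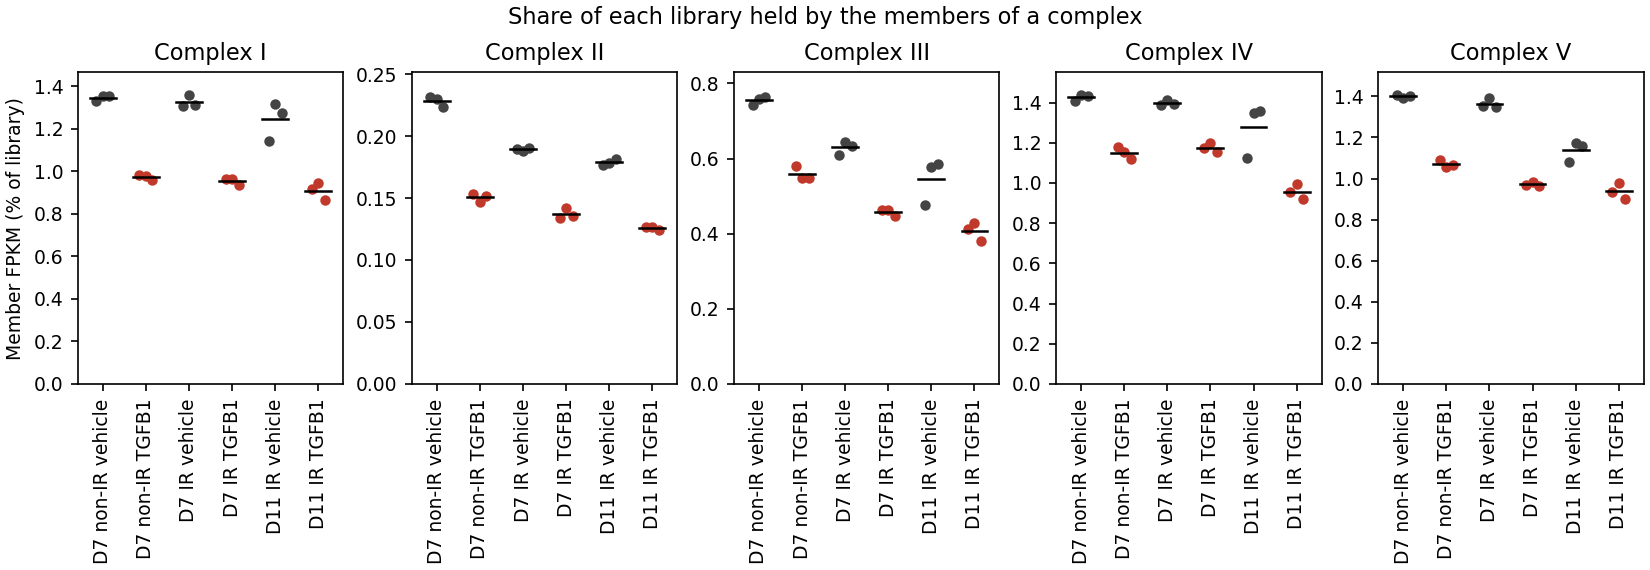
Share of each library's summed FPKM held by the described members of each complex, in percent (y axes start at 0 and differ between panels); each point is a library, grey for vehicle and red for TGFB1, and bars are means of 3. In all 5 complexes and all 3 conditions the TGFB1 libraries lie below the vehicle libraries, and D11 vehicle replicate 1 is the lowest of its group.

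Complex I takes electrons from NADH through its core subunits, which hold the flavin and the iron-sulfur clusters. All 7 nuclear core subunits fell in both D7 conditions, and 6 of 7 at D11. Of all genes, 34.9% fell in D7 non-IR, 39.7% in D7 IR and 31.6% at D11. Ndufs1, the largest of them, measured 80.1, 83.8 and 79.8 FPKM with vehicle and 58.3, 56.8 and 56.97 FPKM with TGFB1 in D7 non-IR. In D7 IR it measured 66.7, 66.3 and 68.3 FPKM with vehicle and 43.7, 45.3 and 46.0 FPKM with TGFB1, and at D11 49.8, 50.5 and 52.3 against 38.3, 39.2 and 40.2 FPKM. The groups did not overlap in any condition, and Ndufs1 changed by −0.49 (SE 0.03), −0.57 (SE 0.04) and −0.37 (SE 0.07), with limma adjusted p of 2.71e-07, 1.99e-07 and 0.000845. Ndufv1, which carries the flavin, changed by −0.47, −0.40 and −0.46, all called.

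Over all subunits of complex I, 33 of 35 tested fell in D7 non-IR, 32 fell and 2 rose in D7 IR, and 26 fell at D11. The shares of all genes that fell were 34.9%, 39.7% and 31.6%, and 35.8% rose in D7 IR. Ndufa6, an accessory subunit of the LYR family that binds the acyl carrier protein, fell in all 3 conditions by different amounts. It measured 550, 601 and 553 FPKM with vehicle and 389, 377 and 366 FPKM with TGFB1 in D7 non-IR. The values were 432, 458 and 444 against 402, 401 and 413 FPKM in D7 IR, where the groups lay close together, and 529, 649 and 599 against 223, 228 and 198 FPKM at D11, where they lay far apart. Its changes were −0.59, −0.13 and −1.45 (limma adjusted p 2.39e-07, 0.00643 and 3.62e-06), and a joint fit of all 18 libraries ended the D7 IR call (adjusted p 0.102). Ndufab1, the mitochondrial acyl carrier protein itself, fell in both D7 conditions (−0.36 and −0.40) and was not called at D11, where vehicle libraries measured 20.2, 27.8 and 32.3 FPKM and TGFB1 libraries 23.9, 26.2 and 26.8 FPKM.

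The accessory subunits Ndufb4 and Ndufa1 went against the other members of complex I in D7 IR. Ndufb4 measured 24.4, 22.7 and 26.2 FPKM with vehicle and 12.9, 14.5 and 14.5 FPKM with TGFB1 in D7 non-IR, a fall of 0.76 on the log2 scale. In D7 IR it measured only 1.501, 0.945 and 1.18 FPKM with vehicle and 3.32, 3.17 and 2.37 FPKM with TGFB1, and this was called a rise of 0.84 (SE 0.12, limma adjusted p 9.91e-05). The groups did not overlap, but both were near the lower limit of the test. Ndufa1, encoded on the X chromosome, measured 36.0, 33.2 and 42.6 FPKM with vehicle and 68.0, 53.9 and 58.7 FPKM with TGFB1 in D7 IR, a rise of 0.68 (SE 0.11, limma adjusted p 0.000728). With vehicle in D7 non-IR it measured 112, 141 and 131 FPKM, overlapping the 128, 119 and 116 FPKM of the TGFB1 libraries. The changes not called were −0.07 for Ndufa1 in D7 non-IR and 0.11 for Ndufa1 and 0.01 for Ndufb4 at D11, and the last 2 changed sign when single libraries were left out. Without D7 non-IR vehicle replicate 1, Ndufa1 was called lower there (−0.17). The single-cell organoids differed from the D7 IR bulk ones in day (day 8) and dose (1 ng/mL TGFB1), with 1 library per time. In these single-cell libraries neither gene was higher at 24 h than at 0 h: Ndufb4 had 307 and 232 CPM, and Ndufa1 had 405 and 388 CPM. These UMIs of Ndufb4 stand beside a bulk level near 1 FPKM with vehicle in D7 IR. Ndufb4 has a near-identical copy, Ndufb4c, and how reads shared by the copies were counted in bulk is not known. The D7 IR level and rise of Ndufb4 are therefore uncertain.

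Assembly factors are needed to build the complexes. Of 12 tested, 9 fell in D7 non-IR, 8 in D7 IR and 7 at D11, where 2 rose. Among all genes 34.9%, 39.7% and 31.6% fell, and 32.3% rose at D11. Ndufaf4, which acts early in the assembly of complex I, measured 13.0, 12.9 and 13.97 FPKM with vehicle and 8.45, 7.499 and 7.79 FPKM with TGFB1 in D7 non-IR, and 12.9, 12.9 and 13.9 against 5.76, 6.87 and 5.60 FPKM in D7 IR. At D11 the order was turned: vehicle libraries measured 6.81, 6.80 and 7.35 FPKM and TGFB1 libraries 9.82, 10.5 and 11.3 FPKM. The groups were separate in all 3 conditions, with changes of −0.68, −1.01 and 0.53 (SE 0.06, 0.07 and 0.09, limma adjusted p 1.10e-06, 4.10e-07 and 0.000437). Ndufaf6, another assembly factor of complex I, fell in all 3 conditions, by 0.78, 0.94 and 1.08 on the log2 scale. Sdhaf2, which helps to attach the flavin to Sdha, rose at D11 from 10.1, 10.0 and 9.30 to 12.1, 12.9 and 14.02 FPKM (0.37, SE 0.08, limma adjusted p 0.003) and was not called in either D7 condition.

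Complex II is succinate dehydrogenase, shared by the respiratory chain and the citric acid cycle, and its 4 subunits fell in all 3 conditions. Among all genes tested in each, 13.5% fell in all 3. Sdhb, the iron-sulfur subunit, measured 288, 300.2 and 289 FPKM with vehicle and 170, 155 and 155 FPKM with TGFB1 in D7 non-IR. In D7 IR it measured 246, 253 and 261 FPKM with vehicle and 184, 196 and 196 FPKM with TGFB1. At D11 it measured 186, 225 and 229 FPKM with vehicle and 112, 117 and 104 FPKM with TGFB1. No condition showed overlap, and Sdhb changed by −0.87, −0.40 and −0.93 (SE 0.04, 0.04 and 0.10, limma adjusted p 1.07e-08, 5.46e-06 and 3.59e-05). Sdha, the flavoprotein, measured 268, 269 and 264 against 191, 192 and 197 FPKM in D7 non-IR, and 203, 195 and 205 against 129, 130 and 128 FPKM at D11. It changed by −0.46, −0.34 and −0.64. The membrane anchors Sdhc (−0.47, −0.36 and −0.86) and Sdhd (−0.47, −0.37 and −0.35) fell as well.

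Complex III passes electrons from quinol to cytochrome c. Of its 8 members, 7 fell in each D7 condition and 6 at D11. The shares of all genes that fell were 34.9% in D7 non-IR, 39.7% in D7 IR and 31.6% at D11. Uqcrq, its most abundant transcript, measured 952, 967 and 962 FPKM with vehicle and 668, 591 and 637 FPKM with TGFB1 in D7 non-IR, and 770, 802 and 803 against 536, 571 and 568 FPKM in D7 IR. At D11 it measured 391, 576 and 579 FPKM with vehicle and 346, 376 and 296 FPKM with TGFB1, with vehicle replicate 1 close to the TGFB1 libraries. The changes were −0.60, −0.50 and −0.58, all called. The core proteins Uqcrc1 (−0.52, −0.42 and −0.80) and Uqcrc2 (−0.26, −0.37 and −0.65) and the Rieske iron-sulfur protein Uqcrfs1 (−0.35, −0.34 and −0.43) fell in all 3 conditions.

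Complex IV is cytochrome c oxidase, which passes electrons to oxygen. Of 15 tested, 13 fell in D7 non-IR, 8 fell and 1 rose in D7 IR, and 12 fell at D11. Among all genes 34.9%, 39.7% and 31.6% fell, and 35.8% rose in D7 IR. The D7 IR count of falls thus lay nearest to the share of all genes. Cox4i1, the ubiquitous form of the regulatory subunit 4, measured 1016, 1008 and 1019 FPKM with vehicle and 882, 830 and 834 FPKM with TGFB1 in D7 non-IR. In D7 IR its groups overlapped, with 1027, 1085 and 1091 against 982, 1035 and 1043 FPKM, and at D11 they were separate again, with 787, 1036 and 999 against 579, 625 and 535 FPKM. Cox4i1 changed by −0.26, −0.07 and −0.69 (limma adjusted p 2.23e-05, 0.158 and 0.00156). Cox7a2l, counted with the assembly factors of complex IV, changed by −0.19, −0.01 and −0.96. Cox6a1 changed by −0.23, −0.02 and −0.53, but its D7 non-IR call was lost in the joint fit (adjusted p 0.0613) and its D11 call without D11 vehicle replicate 2 or 3 or TGFB1 replicate 1 or 3 (adjusted p 0.0556 to 0.0689). The D7 IR changes of these 3 genes were not called on the values as deposited, but quantile normalization gave −0.32 (Cox4i1), −0.46 (Cox6a1) and −0.10 (Cox7a2l), each called.

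Cox5a (−0.27 and −0.25), Cox7a2 (−0.33 and −0.24) and Cox8a (−0.27 and −0.29) fell in both D7 conditions, and Cox7a2 (−0.47) and Cox8a (−0.65) also at D11. Cox5a was not called at D11 (−0.13, limma adjusted p 0.384), and quantile normalization turned its sign. Without D11 vehicle replicate 1, Cox5a was called lower there (−0.27, limma adjusted p 0.00792). Cox5b fell in D7 non-IR, from 30.3, 31.4 and 33.5 to 21.7, 21.8 and 20.9 FPKM, its groups overlapped in the other conditions, and its effect differed by irradiation (0.51, SE 0.10), a call that the joint fit ended (adjusted p 0.057). Ndufa4 fell from 349, 362 and 360 to 270, 271 and 268 FPKM in D7 non-IR and from 464, 484 and 467 to 379, 402 and 374 FPKM in D7 IR. At D11 it measured 232, 292 and 271 FPKM with vehicle and 310, 287 and 296 FPKM with TGFB1, a change of 0.17 that was not called (limma adjusted p 0.186). Ndufa4 was called higher at D11 with quantile normalization (0.39, limma adjusted p 0.00102) and in the joint fit (0.17, adjusted p 0.0259).

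The tissue isoforms Ndufa4l2, Cox7a1 and Cox6b2 of complex IV gave the 3 largest changes of any tested members at D11. Ndufa4l2, a relative of Ndufa4 known to be induced by hypoxia, measured 31.3, 33.0 and 38.5 FPKM with vehicle and 26.4, 26.6 and 26.4 FPKM with TGFB1 in D7 non-IR. In D7 IR it measured 10.7, 9.25 and 9.81 FPKM with vehicle and 2.01, 1.61 and 0.936 FPKM with TGFB1, and at D11 25.3, 31.7 and 28.0 against 0.675, 2.35 and 0.134 FPKM. The groups did not overlap, and Ndufa4l2 changed by −0.35, −2.14 and −3.98 (SE 0.06, 0.14 and 0.41, limma adjusted p 0.000635, 6.80e-07 and 0.000469). A joint fit of all 18 libraries ended the D7 non-IR call (adjusted p 0.303). The D11 change rests on values near 0 with TGFB1 and so depends on the added 1. In the single-cell organoids, which were of D8, Ndufa4l2 had 4 UMIs at 0 h and at most 3 in each later library.

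Cox7a1 measured 87.0, 103 and 98.3 FPKM with vehicle and 93.7, 76.9 and 81.2 FPKM with TGFB1 in D7 non-IR, where the groups overlapped (−0.20, limma adjusted p 0.0673), though Cox7a1 was called lower without vehicle replicate 1 (−0.27), without TGFB1 replicate 1 (−0.28) and with quantile normalization (−0.26). In D7 IR it rose from 109, 109.9 and 102 to 132, 138 and 135 FPKM (0.34, SE 0.04, limma adjusted p 2.30e-05). At D11 it fell from 38.9, 48.1 and 84.0 to 8.17, 10.2 and 10.1 FPKM (−2.40, SE 0.29, limma adjusted p 0.000651). The D7 IR rise was not called in the joint fit (adjusted p 0.138). Cox6b2, the testis isoform of a subunit that joins the monomers of complex IV, fell from 11.9, 10.9 and 12.2 to 5.50, 5.79 and 4.07 FPKM in D7 non-IR. It fell from 10.2, 11.8 and 7.99 to 4.93, 3.99 and 4.84 FPKM in D7 IR and from 27.4, 37.3 and 39.4 to 8.55, 10.8 and 6.64 FPKM at D11. All 3 pairs of groups were separate, and Cox6b2 changed by −1.06, −0.97 and −1.89 (SE 0.10, 0.12 and 0.18, limma adjusted p 8.95e-06, 6.81e-05 and 4.23e-05). Cox6a2, the muscle isoform of Cox6a1, was too low to be tested, with at most 1.73 FPKM.

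**Figure D3:**
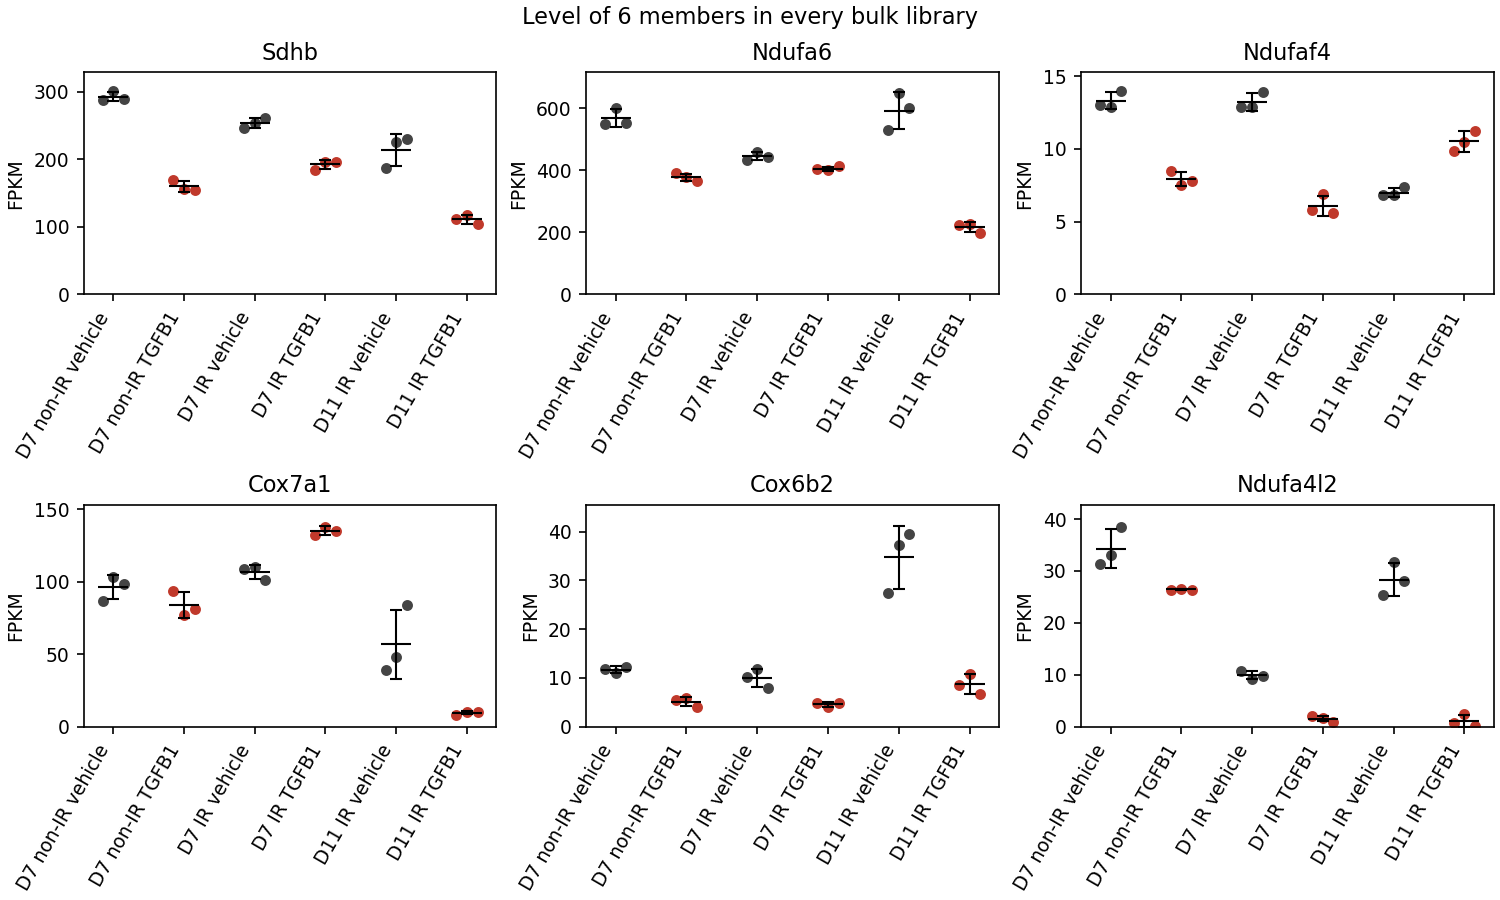
FPKM of 6 members in every bulk library (y axes start at 0 and differ between panels); points are libraries, grey for vehicle and red for TGFB1, and bars are the mean ± SD of 3. Sdhb and Cox6b2 lie lower with TGFB1 in each condition, Ndufaf4 lies higher at D11 only, and Cox7a1 lies higher in D7 IR and lower at D11.

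Complex V makes ATP in a catalytic head turned by a rotor. Of its tested members, 14 of 15 fell in D7 non-IR, 13 of 14 in D7 IR and 10 of 14 at D11. The shares of all genes that fell were 34.9%, 39.7% and 31.6%. The 5 subunits of the head all fell in both D7 conditions and 4 of 5 at D11. Atp5b measured 1578, 1618 and 1608 FPKM with vehicle and 1214, 1220 and 1231 FPKM with TGFB1 in D7 non-IR, and 1796, 1849 and 1796 against 1324, 1338 and 1322 FPKM in D7 IR. At D11 it measured 1211, 1369 and 1352 FPKM with vehicle and 1091, 1161 and 1045 FPKM with TGFB1. The groups were separate in each condition, and Atp5b changed by −0.39, −0.45 and −0.25 (limma adjusted p 1.73e-07, 4.90e-07 and 0.0935), so that the D11 change was not called. Atp5b was called lower at D11 in the joint fit (−0.25, limma adjusted p 0.00111) and without D11 vehicle replicate 1 (−0.31, adjusted p 0.0114). Atp5a1, the alpha subunit, fell in all 3 conditions (−0.43, −0.46 and −0.42). Atp5g1 and Atp5g3 encode the same mature c subunit of the rotor ring as Atp5g2 does. Atp5g1 changed by −0.68, −0.59 and −0.24, all called, the last at a limma adjusted p of 0.0338. The D11 call of Atp5g1 was lost without the filter on low values (adjusted p 0.0565) and without D11 vehicle replicate 2 or 3 or TGFB1 replicate 2 or 3 (adjusted p 0.0652 to 0.133). Atp5g3 fell in both D7 conditions (−0.26 and −0.28) and was not called at D11, where it measured 377, 477 and 484 FPKM with vehicle and 393, 402 and 340 FPKM with TGFB1.

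The next comparison asked whether irradiation changed the TGFB1 effect at D7. Of 87 members, 21 had a higher effect in irradiated organoids, that is a smaller fall or a rise, and 6 a lower one, while the difference was called higher for 25.3% and lower for 27.8% of all genes. The median difference was 0.04. All 8 members of complex III and all 7 nuclear core subunits of complex I were among those not called. In the joint fit the counts were 7 and 3. The largest positive differences were those of Ndufb4 (1.598, SE 0.14, limma adjusted p 5.95e-07) and Ndufa1 (0.75, SE 0.15, adjusted p 0.00172), and both had lower vehicle levels in D7 IR than in D7 non-IR. The D7 IR level of Ndufb4 is uncertain, as stated above, and so is its difference. The 21 include Atp5l, which was under a mean of 1 FPKM in D7 IR and entered this fit only through its D7 non-IR level, so nothing is read from its difference. The 3 largest negative differences were those of Ndufa4l2 (−1.78, SE 0.18, adjusted p 4.90e-06), Ndufaf2 (−0.47, SE 0.11, adjusted p 0.00231) and Ndufaf4 (−0.33, SE 0.10, adjusted p 0.0102). Sdhb fell less in irradiated organoids, by a difference of 0.47 (SE 0.06, limma adjusted p 1.08e-05).

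The last bulk comparison asked whether the effect at D11 differed from that at D7 in irradiated organoids. It shares the D7 IR libraries with the comparison before. Of 86 members, 9 had a higher and 28 a lower effect at D11, while the difference was called higher for 31.5% and lower for 33% of all genes, and the median difference was −0.12. These counts turned with the scaling: quantile normalization gave 24 higher and 18 lower with a median of 0.03. Without D11 vehicle replicate 1 they were 9 and 42. The largest differences were those of Cox7a1 (−2.73, SE 0.31, limma adjusted p 3.09e-05), Ndufa4l2 (−1.84, SE 0.47, adjusted p 0.00631), Ndufaf4 (1.54, SE 0.11, adjusted p 5.07e-08) and Ndufa6 (−1.31, SE 0.12, adjusted p 3.34e-07). Ndufaf2 (0.74, SE 0.10) and Ndufaf5 (0.52, SE 0.11), both assembly factors of complex I, were the next largest on the positive side. In complex IV, 9 of 15 members had a lower effect at D11 and 1 a higher one, Ndufa4 (0.46, SE 0.11, limma adjusted p 0.00274), which was also higher under quantile normalization. Among the 9, quantile normalization shrank the difference of Cox4i1 to −0.036, not called, and turned that of Cox6a1 to 0.24.

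Other genes of mitochondrial metabolism were read from lists. Of 13 genes of the citric acid cycle, 13 fell in D7 non-IR, 13 in D7 IR and 11 at D11, with median changes of −0.47, −0.38 and −0.53. Of all genes, 34.9%, 39.7% and 31.6% fell in these conditions. Cyc1, the heme subunit that gives electrons to cytochrome c, fell in both D7 conditions (−0.54 and −0.69). Of assembly factors outside the symbol rule, 18 of 25 tested fell in D7 non-IR, 19 of 26 in D7 IR (2 rose) and 16 of 26 at D11 (1 rose). These counts stand beside the same falls of all genes, of which 35.8% rose in D7 IR and 32.3% at D11. Of 12 regulators of mitochondrial biogenesis, 5 fell (41.7%) and 3 rose (25%) in D7 non-IR and at D11, near the shares of all genes (34.9% and 33.3% in D7 non-IR, 31.6% and 32.3% at D11), and 9 fell (75%) and 0 rose in D7 IR (39.7% and 35.8% of all genes). Ppargc1a fell from 9.42, 10.2 and 9.92 to 2.17, 2.51 and 2.83 FPKM in D7 non-IR, and its changes were −1.63, −0.48 and −1.54 (limma adjusted p 1.05e-08, 0.000396 and 1.17e-05). Tfam, which packages and transcribes mitochondrial DNA, fell by 0.66, 0.91 and 0.54 on the log2 scale. Nrf1 was not called in D7 non-IR, fell in D7 IR (−0.33) and rose at D11 (0.63).

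Of 15 glycolysis genes, 6 rose (40%) and 4 fell (26.7%) in D7 non-IR, near the 33.3% and 34.9% of all genes. In D7 IR 3 rose and 11 fell (73.3%, against 39.7% of all genes), and at D11 2 rose and 7 fell (46.7%, against 31.6%). Hk2, which starts glycolysis, rose in all 3 conditions (0.72, 0.22 and 1.09). Of 8 hypoxia genes, 6 rose in D7 non-IR (33.3% of all genes rose), 8 fell in D7 IR (39.7% of all genes fell) and 3 fell at D11. The D11 count was near the 31.6% of all genes that fell.

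Markers of cell types moved with TGFB1 too. The 10 enterocyte markers summed to 3499.6 to 3650.0 FPKM with vehicle and 1762 to 1896 FPKM with TGFB1 in D7 non-IR, to 14571 to 15554 against 21381 to 22242 FPKM in D7 IR, and to 3630.1 to 6303 against 2369 to 2754 FPKM at D11. They were thus lower with TGFB1 in 2 conditions and higher in D7 IR. The 8 proliferation markers summed to 513 to 519.5 against 392.05 to 413 FPKM, to 435 to 450.1 against 136 to 162 FPKM, and to 428 to 472 against 457 to 479 FPKM. At D11 none of the 8 fell and 2 rose, while 31.6% of all genes fell and 32.3% rose. The 5 regenerative markers (Clu, Anxa1, Ly6a, Anxa3 and Il33) were higher with TGFB1 in each condition, with 293 to 318 against 2706 to 2809.5 FPKM in D7 non-IR and 167 to 203 against 4293 to 5152 FPKM at D11. Goblet markers were lower with TGFB1 in each condition, with 1363 to 1376 against 1184.5 to 1309.8 FPKM in D7 IR. Stem cell markers were lower in both D7 conditions (955 to 989 against 386 to 470 FPKM in D7 IR) and overlapped at D11. Paneth markers overlapped in D7 non-IR and were higher in the other conditions. Enteroendocrine markers overlapped in D7 non-IR, were higher in D7 IR and lower at D11, and tuft markers were higher in each. The part of these cell-type changes in the members' falls was not tested.

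Vehicle libraries of different conditions lie in separate tables, so their levels are given without a test. From D7 non-IR to D7 IR, 29 of 87 members had every library above and 43 every library below, against 40.7% and 44.3% of all genes, with a median log2 ratio of −0.15 (−0.03 for all genes). From D7 IR to D11, 9 of 86 lay above and 56 below, against 33.7% and 33.1% of all genes, with a median of −0.30 (0.01 for all genes). In D7 IR, Ndufb4 was at 0.0495, Ndufa4l2 at 0.289 and Ndufa1 at 0.291 times its D7 non-IR vehicle mean, while Cox6a1 was at 1.85 times. The ratio of Ndufb4 is as uncertain as its D7 IR level. Atp5l is among the 87 only through its D7 non-IR level, so nothing is read from it.

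In single-cell organoids the question was how soon after TGFB1 such a change appeared. With 1 library per time there is no test, and intervals are exact Poisson 95% intervals that cover counting error only. Summed member UMIs made 47088 CPM at 0 h (47006 to 47169), 47874 at 6 h (47799 to 47950), 43225 at 15 h (43146 to 43305) and 38854 at 24 h (38784 to 38924). Relative to 0 h these were 1.02, 0.918 and 0.825, so the sum was lower at 15 h and lower still at 24 h. By complex, the ratios at 24 h were 0.818 for complex I, 0.796 for complex II, 0.756 for complex III, 0.858 for complex IV and 0.834 for complex V.

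Of 92 members with at least 100 UMIs in either library, 86 lay below their 0 h level at 24 h, 78 at 15 h and 35 at 6 h. Of all genes, 5055 of 11179 lay below at 24 h, 5271 of 10774 at 15 h and 4725 of 10915 at 6 h, so the 6 h count was near the share of all genes. Few changes were large: by a fold of at least 1.5, 0 were higher and 6 lower at 24 h, against 14.7% and 7.42% of all genes. At 15 h 1 was higher and 1 lower, against 8.91% and 5.59%, and at 6 h 1 was higher and 0 lower, against 5.16% and 1.91%. Uqcrq had 1093, 974, 764 and 647 CPM at 0, 6, 15 and 24 h, a ratio of 0.592 at 24 h. Ndufaf4 had 61.2, 55.4, 37.5 and 37.4 CPM, Ndufaf6 18.8, 18.6, 13.7 and 11.7 CPM, and Atp5g1 780.3, 813, 569 and 491 CPM. Ndufb11, an accessory subunit of complex I, had 383, 368, 319 and 251 CPM. Ndufb4c, a near-identical copy of Ndufb4 whose UMIs cannot be told apart with certainty, had 19.8, 29.8, 20.7 and 4.35 CPM. Cox7a1 differed from these, with 132, 174, 253 and 175 CPM, highest at 15 h at 1.92 times the 0 h level. Sdhb had 330.2, 322, 306 and 286 CPM, and Cox4i1, with 1207, 1148, 1234 and 1259 CPM, was among the 6 members above their 0 h level at 24 h.

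The subunits encoded in mitochondrial DNA went the other way in these libraries. The 13 of them summed to 26448, 29124, 37019 and 35812 CPM at 0, 6, 15 and 24 h, or 1.10, 1.3997 and 1.35 times the 0 h sum at 6, 15 and 24 h. All 13 were above their 0 h level at 15 h and at 24 h, by 1.22 to 2.90 times at 24 h. All mitochondrially encoded transcripts together held 3.53, 3.85, 5.04 and 5.00% of UMIs at these times, and their part in the members' lower sum was not tested. Leaving mitochondrially encoded UMIs out of the total left the nuclear sum at 0.838 times its 0 h level at 24 h. Other lists summed at 24 h to 0.840 (citric acid cycle), 0.949 (glycolysis), 0.888 (enterocyte), 0.699 (proliferation) and 30.9 (regenerative) times their 0 h level. Further marker lists summed to 0.843 (stem cell), 0.961 (goblet), 2.12 (Paneth), 5.91 (enteroendocrine) and 4.98 (tuft) times it.

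**Figure D4:**
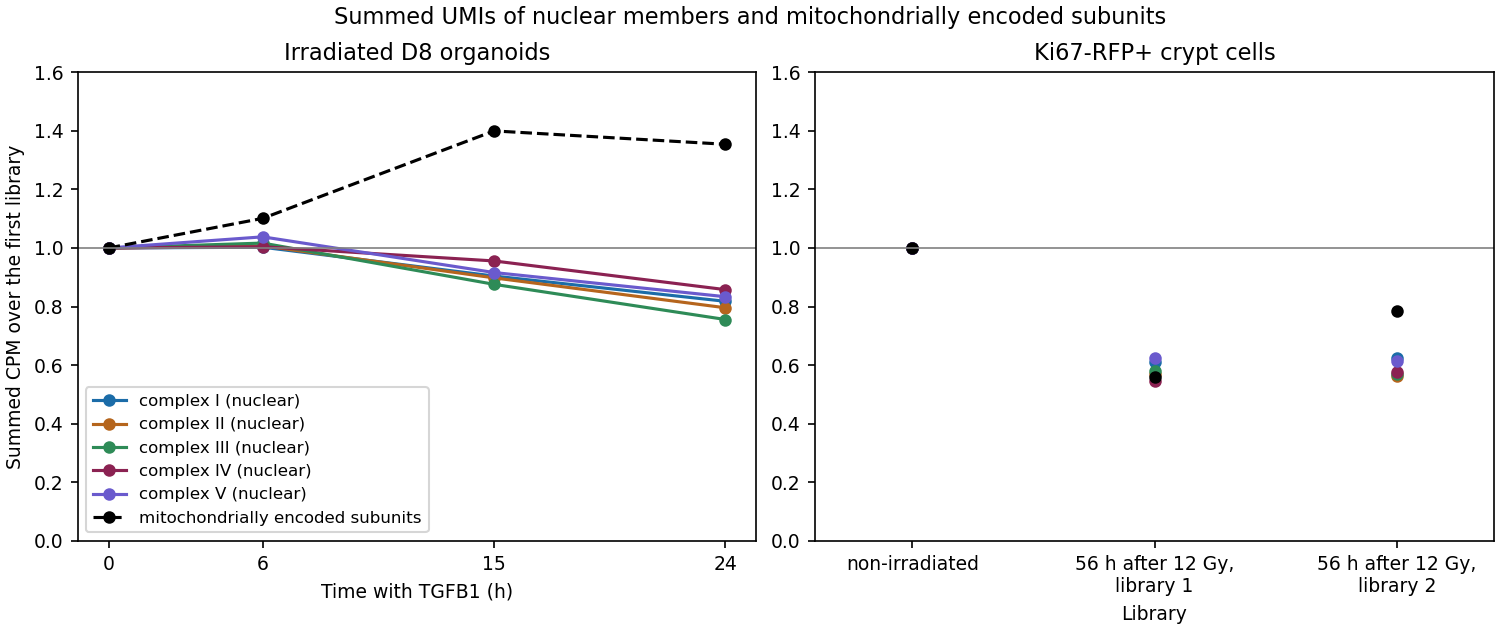
Summed CPM relative to the 0 h library (left, organoids, by hours with TGFB1) or the non-irradiated library (right, crypt cells); coloured points are the nuclear members of each complex and black points the 13 mitochondrially encoded subunits, with 1 library per point and counting intervals too narrow to draw. At 24 h the 5 complexes lie between 0.756 and 0.858 and the mitochondrially encoded subunits at 1.35.

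Cells were also compared within clusters, made without members or mitochondrial genes by a clustering added after the first results were seen. No doublet caller was run. Of 13 organoid clusters, 8 had at least 20 cells at both 0 h and 24 h, and in 7 of them the members' share of UMIs was lower at 24 h, with folds from 0.719 to 1.02 over the 8. In the cluster led by Nusap1 and Ccnb1, genes of mitosis, the share was 4.44% at 0 h (544 cells) and 3.68% at 24 h (159 cells). It was 4.51% (401 cells) and 3.64% (57 cells) in the cluster led by the cyclin genes Ccne2 and Ccne1. In the cluster led by the transporter genes Slc5a4b and Slc13a2 it was 5.10% (748 cells) and 4.72% (42 cells), and in the one led by Afp and Tff3 it was 3.58% (68 cells) and 2.58% (80 cells). The exception was the cluster led by Gm25245, with 4.55% (44 cells) and 4.64% (585 cells). At 15 h, 10 of 11 clusters were lower than at 0 h, and at 6 h 1 of 10. With 1 library per time, a cluster mostly of 1 library may be that library and not a cell type.

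**Figure D5:**
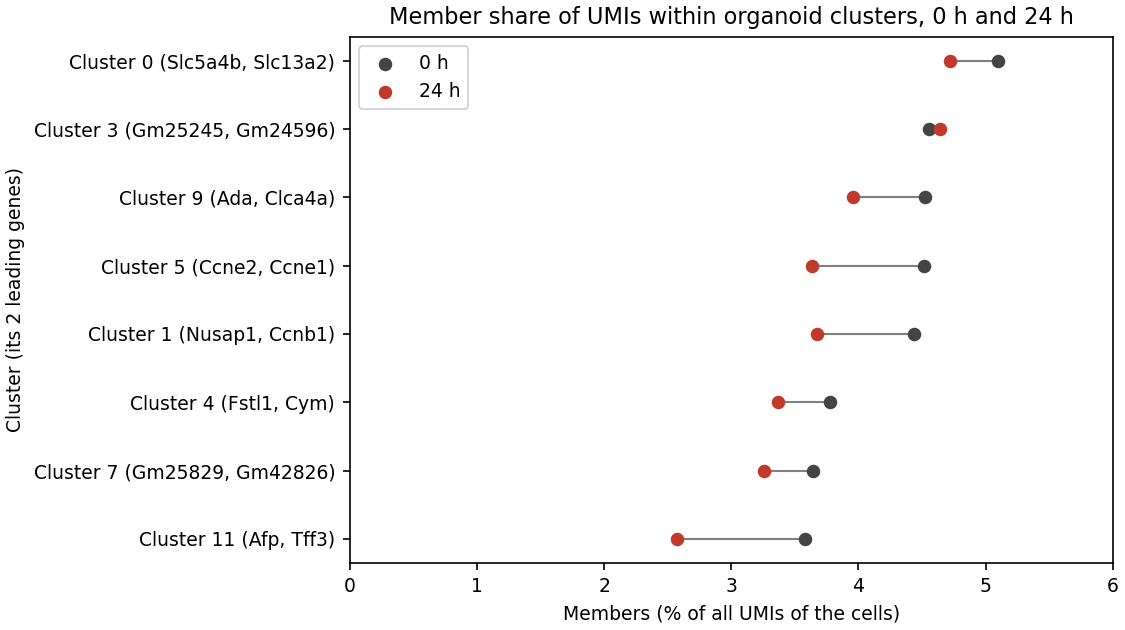
Members' share of all UMIs, in percent, in the 8 organoid clusters with at least 20 cells at both 0 h (grey) and 24 h (red), each cluster with its number and its 2 leading genes. In 7 of the 8 clusters the 24 h point lies to the left of the 0 h point.

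In Ki67-RFP+ crypt cells the comparison was between 1 non-irradiated library and 2 irradiated ones, again with no test. Members summed to 70404 CPM without irradiation (70302 to 70507) and to 41785 (41677 to 41893) and 42213 (42099 to 42328) CPM after it, or 0.594 and 0.5996 times as much. Of 92 members with at least 100 UMIs, 58 were at least 1.5-fold lower and 1 higher in irradiated library 1, against 15.8% and 21.5% of all genes. In irradiated library 2, 59 were lower and 2 higher, against 13.8% and 21.6%. By complex, the sums in library 1 were 0.612 (complex I), 0.570 (II), 0.579 (III), 0.547 (IV) and 0.623 (V) times the non-irradiated ones, and in library 2 0.623, 0.564, 0.570, 0.575 and 0.614 times.

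Cox7a1 had the lowest ratios among the 92 members, with 195 CPM without irradiation and 10.4 and 17.5 CPM after it. Sdhb had 513 CPM and 252 and 245 CPM, and Uqcrq had 1669 CPM and 841 and 835 CPM. Cox6b2 was the exception in both irradiated libraries, with 14.6 CPM without irradiation and 26.9 and 46.8 CPM after it, and Sdhaf2 was past 1.5-fold in library 2 only, with 30.9, 41.0 and 48.9 CPM. Ndufaf4 had 78.3, 113 and 93.5 CPM, above the non-irradiated level in both without passing the fold. Subunits encoded in mitochondrial DNA summed to 0.559 and 0.785 times the non-irradiated level, the citric acid cycle list to 0.709 and 0.718, glycolysis to 1.08 and 1.07 and proliferation to 1.14 and 1.01.

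Other features of these libraries differed with irradiation. The enterocyte markers summed to 0.220 and 0.605 and the regenerative markers to 159 and 205 times the non-irradiated level. Stem cell markers summed to 0.628 and 0.411, Paneth to 0.325 and 0.399, goblet to 0.848 and 0.636 and immune to 2.79 and 1.79 times that level, the last from 2.36 CPM. The labels give different cell strainers for the 2 preparations. Non-irradiated and irradiated cells shared only 1 of 10 clusters with at least 20 cells in each library, led by the goblet cell genes Fcgbp and Clca1, where members held 4.59% of UMIs in 69 non-irradiated cells and 3.29% and 3.55% in 38 and 20 irradiated cells. The part of cell makeup and preparation in the crypt difference was not tested.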

How the data were processed

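Bulk RNA was read from 3 tables of FPKM values that the authors deposited, 1 for each condition, with 6 libraries each. The submitters' processing notes name FastQC 0.11.3, TopHat2 2.1.0, Cuffnorm 2.2.1, Cuffdiff 2.2.1, STAR 2.7.10a, STARsolo and Salmon 1.4 among their tools, without their roles, and the builds mm9, mm39 and GRCm39. The build behind the FPKM was not given in any source used here. The members and gene lists were chosen with earlier results of these data known.

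FPKM were tested as log2(FPKM + 1) with limma 3.58.1 in R 4.3.3 (intensity trend, robust, two-sided), leaving out genes whose mean over the fitted libraries was under 1 FPKM, and called at a Benjamini-Hochberg adjusted p under 0.05. Each condition was fitted alone, and the differences by irradiation and by day as interaction terms over 12 libraries. The method was tested on simulated data. Named are a panel of defining subunits and isoforms, the 3 largest calls in each direction per comparison, the highest and lowest member of each complex, and single-cell members past 1.5-fold. Values of other genes on the lists, such as Ppargc1a, Tfam and Hk2, were chosen after they had been seen.

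Single-cell files hold expected counts deposited by the authors, with fractions where UMIs were shared between genes, and the labels name the PIPseq T2 v2.1 kit. A cell was kept from 500 UMIs and 250 genes upward if mitochondrial UMIs made up 20% or less. Clusters were made with scanpy 1.11.5. Counts were summed per library, given as CPM, and rounded for the intervals. Mitochondrially encoded genes in bulk were not analysed here. One member is not reported here by name.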

Additional observations from a re-analysis of the deposited data

Results flagged for a closer look

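The tests of the difference itself gave calls for 13 named members by irradiation at D7 and 17 by day, on the log2 scale of FPKM + 1, with positive values where the TGFB1 effect was higher in D7 IR than in D7 non-IR, or at D11 than in D7 IR. Both sets share the D7 IR libraries, and no explanation of them was tested.

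By irradiation, the differences above 0 were 1.598 for Ndufb4, 0.7525 for Ndufa1, 0.5337 for Cox7a1, 0.5142 for Cox5b, 0.4705 for Sdhb, 0.2151 for Cox6a1, 0.1914 for Cox4i1, 0.1743 for Cox7a2l and 0.1195 for Sdha. Those below 0 were −1.782 for Ndufa4l2, −0.4679 for Ndufaf2 and −0.3266 for Ndufaf4. The joint fit of all 18 libraries ended the calls of Cox7a1, Cox5b, Cox6a1, Cox4i1 and Sdha, quantile normalization that of Cox4i1 and the sign of Cox6a1, and the Sdha call was also lost without D7 non-IR vehicle or TGFB1 replicate 2 and D7 IR vehicle or TGFB1 replicate 2 (each alone). The value of 0.6211 for Atp5l supports nothing: it passed the filter on low values only through D7 non-IR, and its call was lost without that filter, with quantile normalization and without D7 non-IR vehicle replicate 1 or 2, TGFB1 replicate 3, D7 IR vehicle replicate 2 or 3 or TGFB1 replicate 2 or 3.

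By day, the differences above 0 were 1.535 for Ndufaf4, 0.7405 for Ndufaf2, 0.5244 for Ndufaf5, 0.4649 for Ndufa4, 0.3518 for Atp5g1 and 0.2011 for Ndufs1. Those below 0 were −2.734 for Cox7a1, −1.843 for Ndufa4l2, −1.313 for Ndufa6, −0.9441 for Cox7a2l, −0.6236 for Cox4i1, −0.5367 for Sdhb, −0.5138 for Cox6a1, −0.499 for Sdhc, −0.3769 for Uqcrc1, −0.2959 for Sdha and −0.2835 for Uqcrc2. Quantile normalization shrank Cox4i1 to −0.036, Uqcrc1 to −0.072, Uqcrc2 to −0.049 and Sdha to −0.085, none of them called, and turned Cox6a1. Uqcrc1 was also not called without D7 IR vehicle replicate 1 or TGFB1 replicate 2, or D11 vehicle replicate 2 or 3 or TGFB1 replicate 3 (adjusted p 0.0527 to 0.0597), and Ndufa4l2 not with a pseudocount of 0.1 (adjusted p 0.0528).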

How the results depend on the processing

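Over 128 single-gene values, 1805 of 1868 alternatives kept direction and side of the threshold. Lower members numbered 77 to 80 (D7 non-IR), 68 to 72 (D7 IR) and 50 to 75 (D11) with single libraries left out, and higher ones in D7 IR 3 to 5, with 5 without D7 IR TGFB1 replicate 3. The counts by irradiation were 15 to 23 higher and 4 to 8 lower, and by day 8 to 11 higher and 22 to 42 lower. Left-out libraries also moved Cox7a2l in D7 IR from −0.02529 to 0.007273, and at D11 Ndufa1 from −0.009626 to 0.1872 and Ndufb4 from −0.2105 to 0.1909. Quantile normalization gave 10 lower by irradiation, 24 higher and 18 lower by day, and turned Cox5a at D11 (0.1332) and Cox6a1 by irradiation (−0.1073) and by day (0.2386). All 18 libraries in one fit gave 7 higher and 3 lower by irradiation. The cause of these shifts was not tested.

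Same-numbered libraries deviated together with r from −0.0856 to 0.213. Libraries of different numbers were not compared in this way, so these values cannot settle whether a number marks a shared culture or batch. With the replicate number as a block, 78, 72 and 63 members were lower in the 3 conditions (same order), 22 and 5 were higher and lower by irradiation and 10 and 26 by day, and 1 named call was lost (Sdha by irradiation, adjusted p 0.0511).

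Summed single-cell ratios to 0 h were, with stricter cells, 0.923 (15 h) and 0.8283 (24 h), without mitochondrial UMIs 1.02, 0.9326 and 0.8379 (6, 15 and 24 h), as a mean of cell shares 1.021, 0.9081 and 0.7997, and from whole-number entries 0.9228 (15 h) and 0.8346 (24 h). In crypt library 1 they were 0.5877 without mitochondrial UMIs, 0.5614 as cell shares and 0.6321 from whole entries, and in library 2 0.606 with stricter cells, 0.5661 as cell shares and 0.6302 from whole entries. FPKM carry no depth, so low members such as Ndufb4, Atp5l and Ndufa4l2 have unknown counting error.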
